A study of Mus musculus with 6 samples.

Results

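The 4 metallothionein genes of the mouse, Mt1, Mt2, Mt3 and Mt4, were taken by their gene symbols from the single-cell count matrices and were 4 of 34099 genes listed there. For each gene, UMIs (unique molecular identifiers, each counted as a single captured RNA molecule) and cells with at least 1 UMI were read in each mouse, in each of the 10 cell types of the deposited annotation and in each tumor cell cluster. The genes were chosen by symbol, and the family was selected on these UMIs and cells per cell type, so levels by cell type and by cluster are given as a description with no test, and only the contrast of stressed and control mice was tested.

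Metallothioneins are small, cysteine-rich proteins that hold zinc and copper, buffer both metals inside the cell and scavenge reactive oxygen species. MT1 and MT2 are made in most tissues and abundantly in liver, where zinc, glucocorticoids and inflammatory cytokines raise their genes. MTF1, the zinc-sensing transcription factor, acts on them through metal response elements in their promoters. MT3 is best known from the brain and MT4 from stratified squamous epithelium.

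Tumors came from male wild-type C57BL/6J mice, 8 weeks old when obtained, that carried orthotopic liver tumors of H22 cells, a murine hepatocellular carcinoma line grown as ascites, so the tumor cells of all mice derive from a single cell line. The 3 stress mice had passed through chronic unpredictable mild stress, 2 stressors a day for 21 days, before implantation, and the 3 control mice received the same cells with no stressors. The comparison asked what chronic stress changes in the hepatocellular carcinoma microenvironment. Each mouse gave 1 library of 10x Chromium single-cell RNA.

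The 6 libraries held 7239 to 11752 annotated cells and 149558935 to 187728350 UMIs in those cells, with a median of 7166 to 20478 UMIs a cell. Control libraries were counted with Cell Ranger 9.0.0 and stress libraries with 7.1.0, so version and stress cannot be told apart. Tumor cells made up 70.1%, 48.8% and 53.6% of annotated cells in control mice 1 to 3 and 59.9%, 41.0% and 31.7% in stress mice 1 to 3, and any library pair shared 13 to 40 cell barcodes. The annotated names were checked against marker genes. All markers of endothelial cells (ECs, 7), NK/T cells (6), hepatic stellate cells (HSCs, 5), B cells (4) and inflammatory myeloid cells (4) were highest in their own class. So were 3 of 4 tumor cell markers (Krt8 was highest in HSCs), 5 of 7 of monocytes (Lyz2 and Ly6c2 highest in neutrophils), 4 of 5 of dendritic cells (DCs, Clec9a highest in ECs) and 4 of 5 of neutrophils (Csf3r highest in inflammatory myeloid cells). The class named M-MDSCs (monocytic myeloid-derived suppressor cells), of 350 cells, had none of its 4 markers highest in it, and its 4 summed tumor cell markers (Krt18, Krt8, Cldn6 and Afp) stood at 402 to 731 UMIs per 1000000 UMIs of the same sum (CPM) beside 551 to 806 in tumor cells. Its values are therefore given under the deposited name, as a class whose cells carry tumor cell RNA.

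In the GENCODE annotation all 4 genes lie in tandem on the plus strand of chromosome 8 of GRCm38, within 43.131 kb. Mt4 (ENSMUSG00000031757) spans chr8:94137197-94139031, Mt3 (ENSMUSG00000031760) chr8:94152607-94154146, Mt2 (ENSMUSG00000031762) chr8:94172664-94173568 and Mt1 (ENSMUSG00000031765) chr8:94179082-94180327, each with 3 exons. The longest run of bases that the annotated transcripts of any pair of members share is 20 bases, found for Mt1 with Mt2 and for Mt2 with Mt3.

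Promoter windows are shown because the members differ in matches to the core of the metal response element within them. Each sequence below is 300 bases of RefSeq sequence on GRCm38.p6, plus strand, from 250 bases before the transcript start that RefSeq gives. The RefSeq start is that of GENCODE for Mt3, lies 7 bases after it for Mt1 and Mt4 and lies 46 bases before it for Mt2. Capitals mark each match, on either strand, to the metal response element core, searched as TGCACNC or TGCGCNC.

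Mt4, chr8:94136954-94137253: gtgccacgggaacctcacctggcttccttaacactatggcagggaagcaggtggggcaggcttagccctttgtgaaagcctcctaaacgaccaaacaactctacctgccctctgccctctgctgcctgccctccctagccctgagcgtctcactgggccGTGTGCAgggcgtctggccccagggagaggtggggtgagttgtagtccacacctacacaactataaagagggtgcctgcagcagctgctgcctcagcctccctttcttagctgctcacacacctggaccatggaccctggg
Mt3, chr8:94152357-94152656: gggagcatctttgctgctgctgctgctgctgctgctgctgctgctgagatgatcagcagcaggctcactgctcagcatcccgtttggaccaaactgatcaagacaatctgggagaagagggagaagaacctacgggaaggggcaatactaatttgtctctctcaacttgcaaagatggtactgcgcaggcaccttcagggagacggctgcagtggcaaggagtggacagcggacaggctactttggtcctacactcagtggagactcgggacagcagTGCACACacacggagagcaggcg
Mt2, chr8:94172368-94172667: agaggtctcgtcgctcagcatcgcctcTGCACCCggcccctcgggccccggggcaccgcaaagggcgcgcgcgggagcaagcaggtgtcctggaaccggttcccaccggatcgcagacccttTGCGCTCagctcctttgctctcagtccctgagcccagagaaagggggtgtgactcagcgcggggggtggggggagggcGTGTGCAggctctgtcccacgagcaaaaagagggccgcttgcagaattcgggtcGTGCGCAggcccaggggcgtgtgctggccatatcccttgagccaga
Mt1, chr8:94178839-94179138: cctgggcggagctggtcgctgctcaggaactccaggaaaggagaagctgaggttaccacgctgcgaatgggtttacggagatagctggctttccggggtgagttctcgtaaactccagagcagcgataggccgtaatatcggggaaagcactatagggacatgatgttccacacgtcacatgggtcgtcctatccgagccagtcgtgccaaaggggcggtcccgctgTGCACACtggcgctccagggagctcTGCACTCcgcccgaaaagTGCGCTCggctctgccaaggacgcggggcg

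The Mt2 window held 4 cores, beginning at -223, -128, -50 and 4 relative to the RefSeq start, which is counted as 0, and the Mt1 window held 3, beginning at -23, 2 and 20. Mt3 and Mt4 held 1 core each, at 27 and -91. From the GENCODE start the Mt2 cores begin at -269, -174, -96 and -42, those of Mt1 at -16, 9 and 27 and that of Mt4 at -84. Of 32544 promoter windows of the same length, 25.9% held at least 1 core, 1.99% at least 3 and 0.522% at least 4. The antioxidant response element core TGACNNNGC, the letters bound by NRF2, was matched once, in the Mt2 window at -79 from the RefSeq start and -125 from that of GENCODE, and 12.4% of all windows held it. No match overlapped another. A match is a string of letters, and binding was not measured. Bases outside these windows were not searched, and each window depends on the annotated start. A gene may hold further cores near another start, so the counts compare windows and not whole promoters.

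Mt1 was carried by nearly every tumor cell. It took 0.545%, 0.402% and 0.466% of all UMIs in control mice 1 to 3 and 0.528%, 0.419% and 0.482% in stress mice 1 to 3. Between 89.3% and 94.6% of its UMIs came from tumor cells, which held 69.3% to 90.9% of all UMIs. In tumor cells the level was 5668, 4495 and 4951 CPM in control mice 1 to 3 and 5692, 4942 and 6200 CPM in stress mice 1 to 3. These groups overlapped, and the highest mouse was 1.38 times the lowest. A Mt1 UMI was seen in 99.5% of 29638 tumor cells, at a median depth of 27716 UMIs. After each cell was thinned to 1000 UMIs, so that depth was equal, 91.0% to 94.7% of tumor cells still had one.

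Across cell types Mt1 spanned a broad range. The mean over 6 mice was 5325 CPM ± 632 (SD) in tumor cells, 4529 ± 958 in M-MDSCs, 3363 ± 495 in DCs and 2706 ± 1337 in HSCs. It was 2195 ± 664 in ECs, 2036 ± 1103 in NK/T cells, 1838 ± 628 in monocytes, 1638 ± 1129 in inflammatory myeloid cells, 1535 ± 438 in B cells and 557 ± 512 in neutrophils. The neutrophil and HSC means rest on few cells. Control mouse 1 had 4 neutrophils, with 63 of their 66 Mt1 UMIs in 1 cell, and control mice 2 and 3 had 6 and 8 HSCs. Only the gaps from M-MDSCs to DCs and from B cells to neutrophils exceeded the larger SD of the neighbours. That SD is the spread among mice. All types come from the same mice, so neighbours with a smaller gap may still keep their order within each mouse. Tumor cells stood above each other type in 6 of 6 mice, except M-MDSCs, which they exceeded in 5 of 6. In ECs the 10% of cells with most Mt1 held 59.5% to 76.5% of its UMIs, and in NK/T cells 81.2% to 95.3%. In tumor cells they held 25.8% to 31.4%. The median inflammatory myeloid cell held 0 or 1 Mt1 UMI, and 29.3% to 54.3% of these cells held any. The levels of these 3 types outside tumor cells are thus not those of a typical cell.

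ECs held 3199, 1728 and 2673 CPM of Mt1 in control mice 1 to 3 and 2372, 1678 and 1521 CPM in stress mice 1 to 3. Monocytes held 2785, 1430 and 2264 CPM in control mice against 1992, 1082 and 1473 CPM in stress mice. In both types control mouse 1 was highest and the groups overlapped. In inflammatory myeloid cells the mice were far apart, with 3309, 936 and 860 CPM in control mice against 2794, 1318 and 613 CPM in stress mice, mouse 1 of either group being far above the others. Tumor cell markers in these cells also differed among mice, at 68.8%, 22.2% and 15.4% of the tumor cell level in control mice against 25.5%, 27.2% and 7.49% in stress mice, and their part in the spread was not tested.

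**Figure D1:**
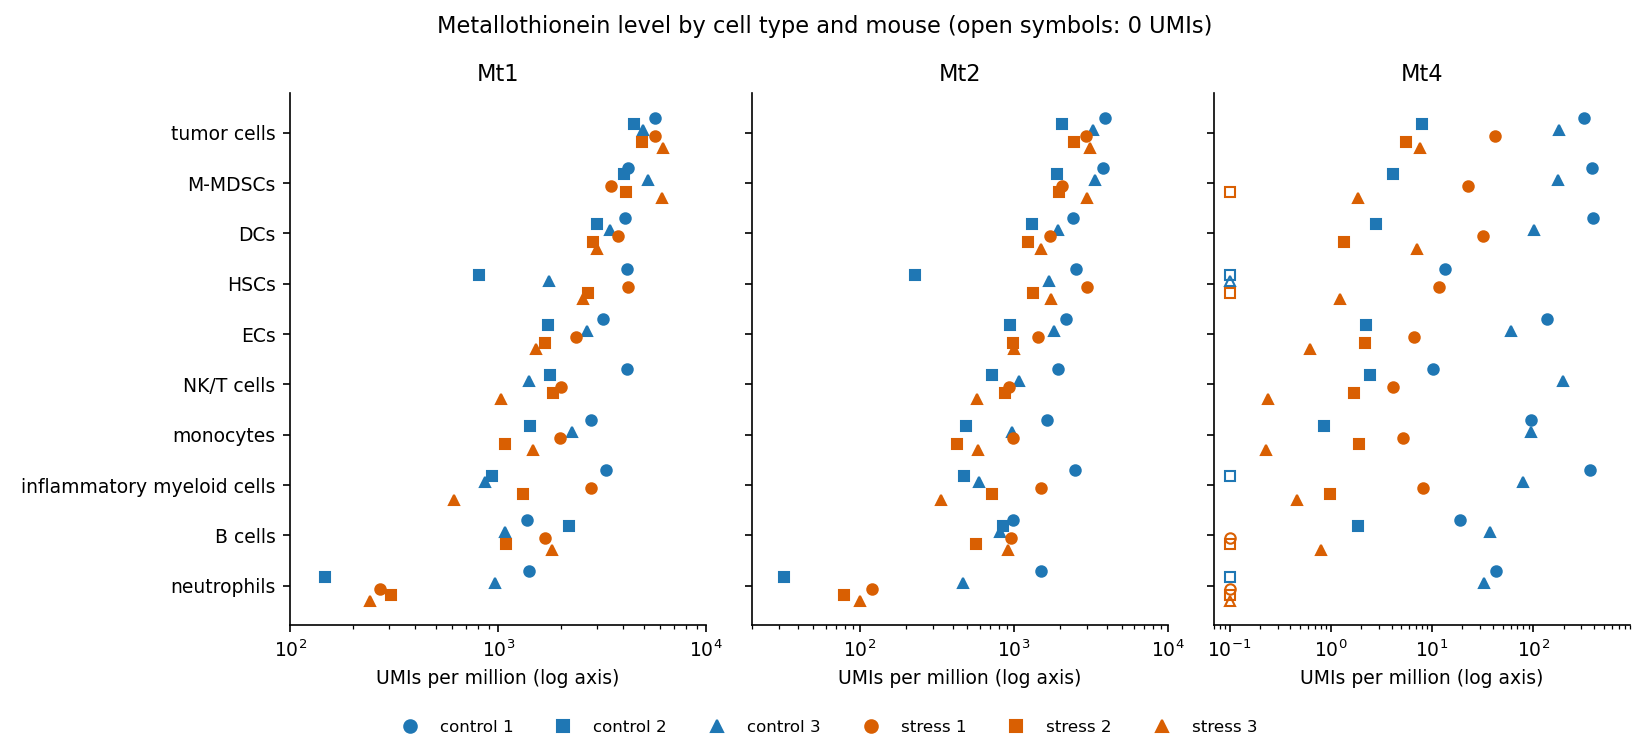
CPM (log axes) of Mt1, Mt2 and Mt4 in each cell type, 1 point per mouse, blue for the 3 control and orange for the 3 stress mice, with open symbols at the left edge where a mouse had 0 UMIs. Tumor cells lead for Mt1 at 4495 to 6200, while Mt4 is spread over 57.5-fold between mice in the same cells.

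Mt2 was also highest in tumor cells. In tumor cells it stood at 3921, 2061 and 3244 CPM in control mice 1 to 3 and 2940, 2451 and 3118 CPM in stress mice 1 to 3, with overlapping groups and control mouse 2 lowest. The mean over 6 mice was 2956 CPM ± 647 (SD) in tumor cells, 2677 ± 808 in M-MDSCs, 1749 ± 958 in HSCs, 1685 ± 438 in DCs and 1396 ± 514 in ECs. The remaining types ran from 1022 ± 484 in NK/T cells through 1021 ± 834 in inflammatory myeloid cells, 852 ± 458 in monocytes and 848 ± 153 in B cells to 384 ± 569 in neutrophils. No gap between neighbours in this order exceeded the larger SD among mice. DCs still lay above ECs in each mouse. They held 2405, 1311 and 1943 CPM against 2182, 942 and 1814 in control mice 1 to 3. In stress mice 1 to 3 they held 1712, 1242 and 1500 CPM against 1443, 985 and 1008. Tumor cells exceeded M-MDSCs and HSCs in 5 of 6 mice each and the other types in 6 of 6. As for Mt1, few cells held most of the UMIs in some types. The 10% of cells with most Mt2 held 67.0% to 78.9% of its UMIs in ECs and 84.8% to 93.0% in NK/T cells.

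Mt1 and Mt2 varied together from cell to cell. With each tumor cell thinned to 3000 UMIs, the Pearson correlation of their log2(UMIs + 1) was 0.710, 0.686 and 0.697 across 7277, 5553 and 4898 cells of control mice 1 to 3. It was 0.708, 0.686 and 0.733 across 4176, 3709 and 3226 cells of stress mice 1 to 3. The cells of a mouse share a library and were thinned to a common depth, so this describes each library and carries no p. The median thinned cell held 11 to 15 Mt1 UMIs depending on the mouse, and 0.412% to 0.998% of cells held none.

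Among 57 sums of mouse and cell type and 9003 genes with a mean of at least 10 CPM, Mt2 correlated with Mt1 at r = 0.97 on log2 CPM. The genes outside the family most like Mt1 were Emp1 (r = 0.94), Baiap2 (0.93), Kif21a (0.92), Lmna (0.92) and Gm15501 (0.92). Mt4 reached 0.49. The points share libraries and the tumor cell share of each sum, and the values are a description.

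Levels of Mt1 also differed among the 10 clusters of tumor cells, cluster 9 having the lowest mean. It was the lowest in 4 of 6 mice, and cluster 17 in control mice 1 and 3. Cluster 9 stood at 3929, 2865 and 3484 CPM in control mice 1 to 3 and 2741, 2540 and 3152 CPM in stress mice 1 to 3. Cluster 7 led with a mean of 6145 CPM ± 874 (SD, n = 6), followed by clusters 3 (5922 ± 547), 14 (5870 ± 1278) and 6 (5664 ± 574). Clusters 1, 5 and 4 lay between 5042 and 5246, and clusters 21 (3942 ± 808), 17 (3733 ± 371) and 9 (3118 ± 516) were lowest. The steps from cluster 4 to 21 and from 17 to 9 exceeded the larger SD of the neighbours, and the others did not. Cluster 17 was also the shallowest, with a median of 1852 UMIs a cell against 35659 in cluster 1, and 18689 in cluster 9. Mt2 lay between 2352 in cluster 9 and 3128 in cluster 3, with no gap between neighbours above the larger SD among mice.

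Across 60 sums of tumor cluster and mouse, after the mean of each mouse was subtracted, Mt2 again was most like Mt1 (r = 0.81, 8108 genes). The closest genes outside the family were Actg1 (0.76), Eif4e2 (0.73), Cript (0.72), Hspb1 (0.70) and Crip2 (0.70). Mt4 stood at -0.18.

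**Figure D2:**
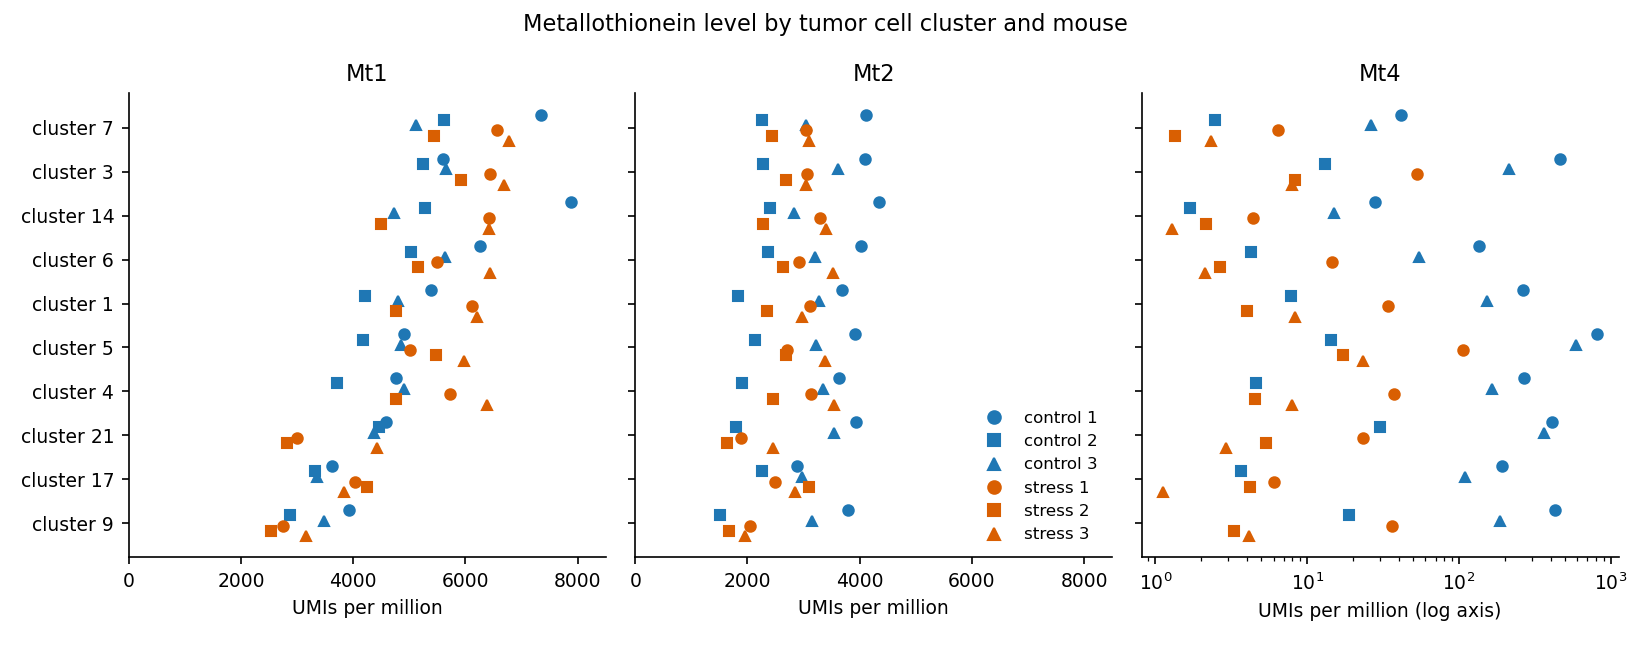
CPM of Mt1 and Mt2 (linear axes) and Mt4 (log axis) in the 10 tumor cell clusters, ordered by mean Mt1, 1 point per mouse. Cluster 9 has the lowest mean Mt1 (3118) and Mt2 (2352) and yet a mean of 113 for Mt4, while cluster 7 leads for Mt1 and has only 13.3 for Mt4.

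Mt4 was the member that separated the mice. Tumor cells of control mice 1 to 3 held 319.9, 7.89 and 179.6 CPM, and those of stress mice 1 to 3 held 41.9, 5.56 and 7.55 CPM. Control mice 1 and 3 and stress mouse 1 were high and the other 3 mice low. The highest mouse was thus 57.5 times the lowest, and control mouse 2 lay inside the range of the stress mice. Relative to 100 Mt1 UMIs of the same tumor cells, there were 5.64, 0.176 and 3.63 Mt4 UMIs in control mice 1 to 3 and 0.736, 0.113 and 0.122 in stress mice 1 to 3. The 3 mice with most Mt4 also had the 3 highest medians of UMIs per cell over all annotated cells (18291, 16864.5 and 20478, against 9032 or less) and the largest tumor cell shares. The part of depth and cell makeup in the split was not tested. Within tumor cells the median depth did not follow it, at 21971, 26149 and 32523 UMIs in control mice 1 to 3 and 32080.5, 31343 and 31042 in stress mice 1 to 3.

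The split also stood in the number of cells. A Mt4 UMI was seen in 57.1% of tumor cells of control mouse 1 (95% exact interval 55.9% to 58.2%), 6.71% of control mouse 2 (6.07% to 7.39%) and 48.2% of control mouse 3. In stress mice 1 to 3 it was seen in 23.8%, 6.70% and 7.35%. The intervals cover counting error only. After thinning to 1000 UMIs a cell, the shares were 13.8%, 0.60% and 9.26% in control mice against 2.53%, 0.47% and 0.49% in stress mice, in nearly the same order. For comparison, 1.97% of 457 B cells held a Mt4 UMI at a median depth of 4720. Their shares were highest in control mice 1 and 3, with 3 of 20 B cells in control mouse 1 (15%), 1 of 114 in control mouse 2 (0.877%) and 4 of 68 in control mouse 3 (5.88%), against 0 of 51, 0 of 93 and 1 of 111 in stress mice 1 to 3. These shares rest on few cells, and the source of the UMIs was not tested.

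Mt4 UMIs were more concentrated in few tumor cells than those of Mt1 or Mt2. The 1% of tumor cells with most Mt4 held 29.2%, 64.2% and 34.3% of its UMIs in control mice 1 to 3 and 39.3%, 55.5% and 54.9% in stress mice 1 to 3. For Mt1 the same share was 3.96% to 6.12% and for Mt2 3.81% to 4.88%. These shares are of unthinned counts, and a gene with few UMIs a cell gives a higher share from counting alone. Mt4 had 54611, 1198 and 29176 UMIs in tumor cells of control mice 1 to 3 and 5799, 667 and 783 in stress mice 1 to 3. The part of low counts in its shares was not tested. Single tumor cells reached 594 Mt4 UMIs in control mouse 3 and 513 in control mouse 1, and still 88 in control mouse 2 and 126 in stress mouse 3. With cells thinned to 3000 UMIs, 5.68% of tumor cells in control mouse 1 and 3.14% in control mouse 3 held 5 or more Mt4 UMIs, against 0.0900% in control mouse 2 and 0.311%, 0.0270% and 0.0620% in stress mice 1 to 3.

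**Figure D3:**
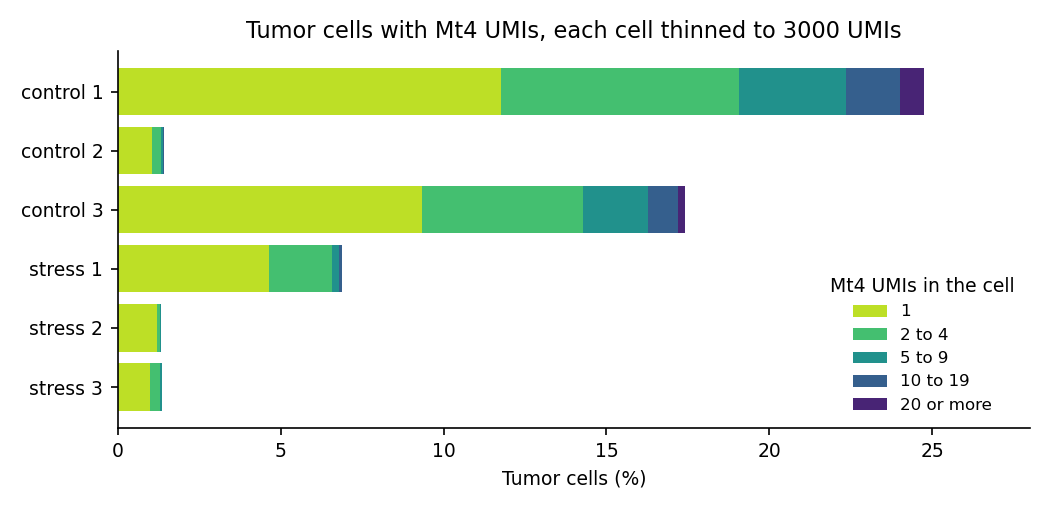
Percentage of tumor cells with Mt4 UMIs in each mouse after thinning every cell to 3000 UMIs, with the bar divided by the number of Mt4 UMIs in the cell. Control mice 1 and 3 reach 24.7% and 17.4%, stress mouse 1 reaches 6.87%, and the other 3 mice lie between 1.32% and 1.42%.

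Mt4 was highest in tumor cluster 5 in 5 of 6 mice and in cluster 21 in control mouse 2. Cluster 5 held 809, 14.3 and 589 CPM in control mice 1 to 3 and 106, 17.3 and 23.2 CPM in stress mice 1 to 3. Clusters 7 and 14, among the highest for Mt1, were lowest for Mt4, with means of 13.3 and 8.8 CPM. With cells thinned to 3000 UMIs, 40.0% of cluster 5 cells and 9.09% of cluster 7 cells of control mouse 1 held the gene. In control mouse 2 these shares were 1.65% and 0.349%.

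Tumor cells with a Mt4 UMI also carried more Mt1 and Mt2 than tumor cells of the same mouse without one. The log2 difference in Mt1 CPM between these cells was 0.21, 0.64 and 0.38 in control mice 1 to 3 and 0.26, 0.52 and 0.57 in stress mice 1 to 3. For Mt2 it was 0.46, 0.71 and 0.55 in control mice against 0.34, 0.49 and 0.52 in stress mice. Among 6167 genes at 20 CPM or more, S100a4, a calcium-binding protein of motile cells, was 0.42 to 2.02 higher, Ly6a, which encodes the surface protein Sca-1, 0.63 to 1.73 higher, and Spp1, which encodes osteopontin, 0.49 to 1.37 higher on this scale. Gas5, a host gene of small nucleolar RNAs, differed by -0.25 to -0.78. The same 3 genes led the list of genes most like Mt4 across the cluster sums, at r = 0.89 for S100a4, 0.86 for Ly6a and 0.86 for Spp1. Cells were divided by Mt4 itself and these genes were picked after their values were seen, so the differences are given with no test. Cells were thinned to 3000 UMIs, and 5 CPM were added before the log2. The cells with Mt4 numbered 1801, 79 and 853 in control mice 1 to 3 and 287, 49 and 44 in stress mice 1 to 3. In the mice with few such cells the differences rest on few UMIs.

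Mt3 had few UMIs, and pooled over mice most of them lay in NK/T cells. The 6 libraries held 289 Mt3 UMIs in annotated cells, of which 186, or 64.4%, came from NK/T cells, a class of 4.24% of the cells. NK/T cells held 7, 22 and 5 Mt3 UMIs in control mice 1 to 3 and 18, 61 and 73 in stress mice 1 to 3. In control mice 1 and 3 tumor cells held more, with 60.9% of 23 and 52.9% of 17 Mt3 UMIs. A UMI was seen in 7 of 93, 20 of 674 and 5 of 126 NK/T cells of control mice (7.53%, 2.97% and 3.97%) and in 18 of 269, 43 of 814 and 59 of 514 of stress mice (6.69%, 5.28% and 11.5%). The groups overlapped, since control mouse 1 lay above stress mice 1 and 2.

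Pooled over mice, 6.10% of NK/T cells held a Mt3 UMI at a median depth of 4403, against 0.138% of tumor cells at a median depth of 27716, 0.256% of monocytes and 0.087% of ECs. Smaller types held some too. In HSCs of stress mouse 1, 3 of 26 cells had one (11.5%, 23.6 CPM), against 0 in each other mouse. B cells had 1 of 114 and 2 of 68 in control mice 2 and 3 and 1 of 93 in stress mouse 2. Neutrophils had 1 of 34 in control mouse 2 and 1 of 57 in stress mouse 3. DCs had 1 of 141, 3 of 553 and 3 of 356 in stress mice 1 to 3. The other mice had 0 in these 3 types. No Mt3 UMI was seen in 6307 inflammatory myeloid cells, at a median depth of 1547, which allows a share of up to 0.048%, or in 350 M-MDSCs, at 27447.5, which allows up to 0.857%. These limits are on cells with a UMI at that depth, not on cells expressing the gene. The 152 NK/T cells with Mt3 were deeper than the other 2338, with medians of 8210.5 and 4282 UMIs. The T cell receptor genes were found on either side of the split, with Cd3e at 344 CPM in cells with Mt3 and 309 in those without, and Trac at 425 and 377. Klrb1c and Ncr1, receptors of natural killer cells, stood at 0 in the cells with Mt3 and at 6.15 and 9.10 CPM in the others, whereas Nkg7, a gene of natural killer and cytotoxic T cells, stood at 1496 CPM in the cells with Mt3 and 1167 in the others. Nkg7 was higher in the cells with Mt3 in 4 of 6 mice. Mt1 was lower in them in 5 of 6, at 512, 2243 and 217 CPM against 4405, 1748 and 1494 in the other cells of control mice 1 to 3, and at 535, 1390 and 483 CPM against 2140, 1863 and 1131 in those of stress mice 1 to 3, where the cells with Mt3 numbered 5 to 59 a mouse. The 10% of NK/T cells with most Mt1 held 81.2% to 95.3% of its UMIs, and a single cell held 31.1% in control mouse 1. A small group of cells can miss such cells, so these Mt1 levels are not those of a typical cell. The split by Mt3 was chosen after its values were seen and has no test.

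Metallothionein UMIs outside tumor cells were next set beside the RNA of tumor cell markers in the same cells, since tumor cells held most of the UMIs of every library. Each level was expressed as a percentage of that in tumor cells of the same mouse. In ECs the median over 6 mice was 40.1% for Mt1, 47.4% for Mt2 and 31.1% for Mt4, beside 27.7% for the 4 summed tumor cell markers. Monocytes stood at 33.4%, 27.0% and 21.2% beside 18.9%, and DCs at 66.6%, 59.1% and 66.2% beside 55.5%. The percentage for Mt1 exceeded that of the markers in 6 of 6 mice in each of these 3 types. NK/T cells stood at 36.1% for Mt1 beside 37.2% for the markers, with Mt1 above in 4 of 6 mice. In inflammatory myeloid cells Mt1 stood at 23.8% beside 23.8%, in M-MDSCs at 86.2% beside 86.5% and in neutrophils at 5.46% beside 5.77%, with Mt1 above in 3 of 6 mice each. B cells (26.7% beside 21.8%) and HSCs (48.2% beside 44.7%) had Mt1 above in 5 and 4 of 6. In HSCs the marker sum holds Krt8, at 300 CPM there against 5.66 CPM in tumor cells. It ran from 8.52% to 327% among mice, so it does not measure tumor cell RNA in that class. Outside HSCs, tumor cell markers broadly moved with metallothionein level among these types, and their part in it was not tested.

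Several clusters with little tumor marker RNA held Mt1 and Mt2. EC cluster 24, at 2.34% for the markers, stood at 14.3% for Mt1 and 15.4% for Mt2, while neutrophil cluster 25, at 5.77%, stood at 5.46% and 3.66%. Cluster 2 of ECs stood at 18.02% of the tumor cell level for Mt1 and 21.9% for Mt2, beside 3.97% for the markers and 4.22% for Mt4. Cluster 8 of ECs stood at 21.9% and 26.5% beside 3.94% and 3.84%. In DC cluster 20 Mt1 stood at 16.8% and Mt2 at 6.82%, beside 4.50% for the markers and 2.11% for Mt4. In clusters 2, 8 and 20 Mt1 thus exceeded the marker percentage, in 6 of 6 mice each, while the median for Mt4 lay near or below it. Mt4 exceeded the markers in 3, 3 and 2 of 6 mice in clusters 2, 8 and 20, and reached 222% in cluster 20 of control mouse 1. EC cluster 16 and DC cluster 19 stood at the other end, at 78.3% and 84.1% for Mt1 beside 73.8% and 83.6% for the markers. Across the 18 clusters outside tumor cells, log Mt1 and log marker level correlated at r = 0.83, a description over clusters that share libraries. HSC cluster 26, whose marker sum holds its own Krt8, is among them.

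**Figure D4:**
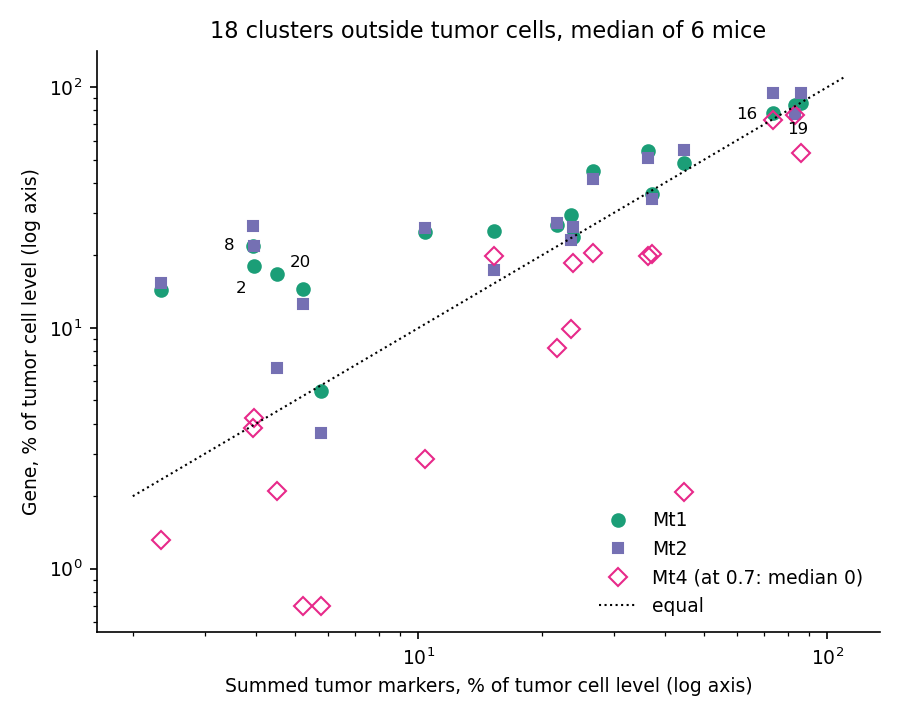
Mt1, Mt2 and Mt4 in the 18 clusters outside tumor cells against the 4 summed tumor cell markers, each as a percentage of tumor cells of the same mouse (median of 6 mice, log axes; the dotted line marks equal percentages). Numbers mark EC clusters 2, 8 and 16 and DC clusters 19 and 20, and in EC clusters 2 and 8 and DC cluster 20 Mt1 and Mt2 lie above the line, while Mt4 lies near or below it.

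Stress was compared with control on UMIs summed per mouse and cell type by edgeR's quasi-likelihood test with Benjamini-Hochberg adjustment over all genes tested. Against CPM, the TMM scaling of edgeR lowered fold changes by 0.14 on the log2 scale in tumor cells, and it raised them by 0.13 in inflammatory myeloid cells and 0.11 in DCs. No member passed an adjusted p of 0.05 in any of the 8 cell types with at least 10 cells in every mouse. Of the 24 tests of a member, 7 had an unadjusted p under 0.05, all of them of Mt4, beside 17.4% of all tests in these types, and DESeq2 called 0. The share of genes called in either direction was 21.4% in tumor cells, 0.213% in ECs, 0.122% in monocytes, 0.857% in NK/T cells, 2.64% in DCs, 0.483% in B cells and 0.561% in M-MDSCs. In inflammatory myeloid cells edgeR called 0 of 9219 genes (0%), with 365 at an unadjusted p under 0.05, and DESeq2 called 6. In monocytes same-numbered mice correlated at 0.478, 0.422 and 0.146 in their deviations, and control mouse 2 with stress mouse 3 at 0.188. A replicate block raised the number of genes called there from 15 to 186. No member passed with it (edgeR adjusted p = 0.0918 for Mt1, 0.112 for Mt2 and 0.104 for Mt4).

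Mt1 in tumor cells stood at a log2 fold change of 0.01 (SE 0.149, edgeR adjusted p = 0.954). Its fold changes in the other types were -0.47 in ECs (SE 0.271, edgeR adjusted p = 0.445), -0.46 in monocytes (0.315, 0.583), -0.50 in NK/T cells (0.352, 0.591), 0.02 in inflammatory myeloid cells (0.631, 0.999), -0.01 in DCs (0.174, 0.988), 0.12 in B cells (0.285, 0.928) and 0.02 in M-MDSCs (0.201, 0.997). Over the alternative settings Mt1 ran from -0.77 to 0.12 in NK/T cells and from -0.998 to 0.67 in inflammatory myeloid cells. It stayed negative in ECs and monocytes. In NK/T cells few cells held most of the Mt1 UMIs, as given above. The groups overlapped for Mt1 in all 8 types, while CPM of the groups did not overlap for 22.8% of genes tested in ECs, 18% in monocytes, 20.1% in NK/T cells, 7.41% in inflammatory myeloid cells, 25.4% in DCs, 14% in B cells and 15% in M-MDSCs. Mt2 had a negative fold change in all 8 types in the main fit, from -0.03 in B cells, where it turned to 0.02 with no filter on low counts, to -0.60 in monocytes, with -0.26 in tumor cells (SE 0.242, edgeR adjusted p = 0.470). Over the alternative settings the fold change of Mt2 rose to at most 0.25 in B cells, 0.54 in inflammatory myeloid cells and 0.02 in tumor cells, and stayed negative in the other types. In the main fit the lowest adjusted p of Mt2 was 0.449, in ECs, where the fold change was -0.55 (SE 0.319).

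Mt4 had large negative fold changes with large errors in each of the 7 types in which it was tested. In tumor cells the log2 fold change was -3.31 (SE 1.27, edgeR adjusted p = 0.1001). It was -4.50 (SE 1.36) in ECs, -5.07 (1.48) in monocytes, -5.71 (1.62) in inflammatory myeloid cells, -5.28 (1.33) in NK/T cells, -4.02 (1.27) in DCs and -4.98 (1.30) in M-MDSCs, with edgeR adjusted p from 0.0979 in NK/T cells to 0.994 in inflammatory myeloid cells. Control mice 1 and 3 gave the high values and control mouse 2 lay within or below the range of the stress mice in every one of these types, so these are not 7 separate observations. Without control mouse 2, Mt4 passed in tumor cells (-3.86, edgeR adjusted p = 0.0154), monocytes (-5.72, 0.0217), NK/T cells (-6.02, 0.0043), DCs (-4.77, 0.0074) and M-MDSCs (-5.65, 0.0009). That omission takes out the low control mouse. It called 5790 of 19354 genes in tumor cells, against 4041 of 18856 with all mice. Calls were 64 of 11711 in monocytes, 93 of 10490 in NK/T cells, 354 of 9674 in DCs and 90 of 9716 in M-MDSCs. In NK/T cells of control mouse 3, a single cell held 152 of the 170 Mt4 UMIs, and without that mouse the fold change was -1.16. Single cells also held 171 of 248 Mt4 UMIs in inflammatory myeloid cells, 92 of 135 in DCs and 165 of 445 in M-MDSCs of control mouse 3, and 200 of 556 in inflammatory myeloid cells, 113 of 222 in DCs and 67 of 147 in M-MDSCs of control mouse 1. The groups overlapped in tumor cells, where CPM did not overlap for 38.3% of genes tested.

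Mt3 could be tested only in NK/T cells, where its log2 fold change was 0.87 (SE 0.448, edgeR adjusted p = 0.449). Its levels there were 14.3, 5.34 and 5.79 CPM in control mice 1 to 3 and 9.23, 8.70 and 17.7 CPM in stress mice 1 to 3. The median depth of NK/T cells was also lower in control mice, at 2958, 3153 and 4376.5 UMIs against 4477, 4876.5 and 5923 in stress mice.

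**Figure D5:**
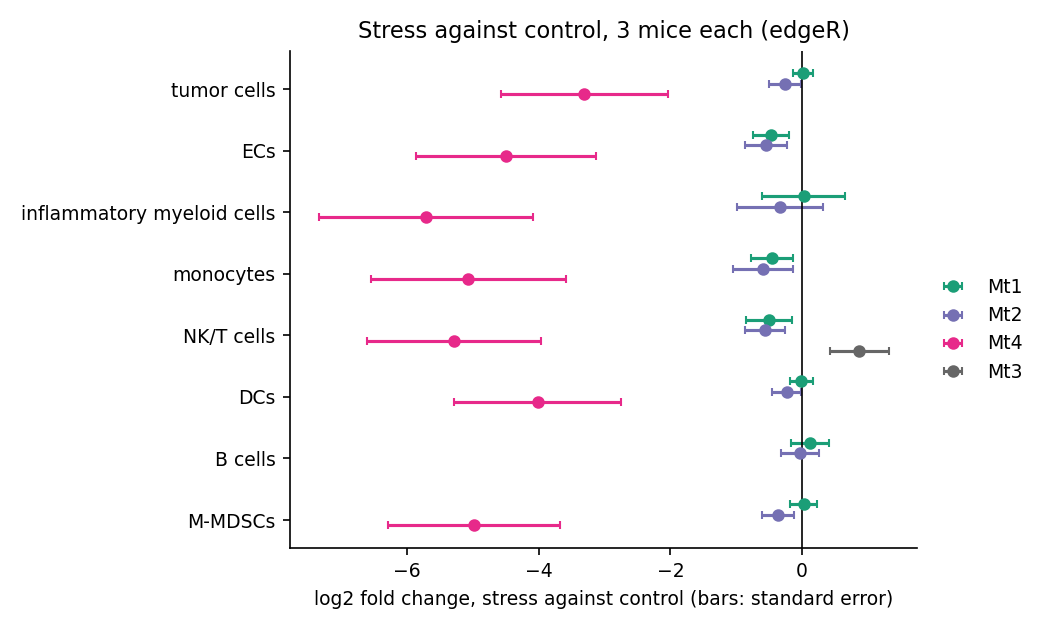
log2 fold change of each member, stress against control (3 mice each), from edgeR on UMIs summed per mouse and cell type, with bars of 1 standard error. Mt1 and Mt2 lie between -0.60 and 0.12, Mt4 between -5.71 and -3.31, and none passes an adjusted p of 0.05.

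Within single tumor clusters the fold change of Mt1 lay between -0.33 and 0.30, with a lowest edgeR adjusted p of 0.241. The stress mice lay above the control mice with no overlap in 3 clusters. In cluster 3 Mt1 stood at 5597, 5240 and 5648 CPM in control mice against 6434, 5923 and 6688 CPM in stress mice. Cluster 5 had 4902, 4167 and 4849 against 5012, 5478 and 5973 CPM, and cluster 17 had 3619, 3314 and 3354 against 4029, 4241 and 3841 CPM. The CPM of the groups did not overlap for 27.3%, 26.1% and 18.5% of genes at a mean of 10 CPM or more in these clusters, and edgeR called 3.11%, 2.05% and 2.01%, so an absence of overlap was common there. In cluster 21 the order was turned, with 4586, 4458 and 4375 CPM in control mice against 3001, 2811 and 4422 CPM in stress mice, and the groups overlapped.

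Mt4 passed in cluster 21 alone, by -4.60 on the log2 scale (SE 0.715, edgeR adjusted p = 0.00124). There it held 410.5, 30.1 and 361.6 CPM in control mice against 23.3, 5.3 and 2.9 CPM in stress mice, with no overlap, beside 0.855% of genes called and 13% of genes without overlap in that cluster. In control mouse 2, a single cell held 17 of the 21 UMIs. By cells with a UMI the groups overlapped, at 38.5%, 6.35% and 38.0% of cells in control mice against 18.7%, 3.57% and 4.11% in stress mice, and at 3.17% in control mouse 2 against 5.61% in stress mouse 1 after thinning to 3000 UMIs. The fits by cluster were alternatives to the fit over all tumor cells. In the other clusters tested the fold change of Mt4 lay between -2.56 and -3.79, with edgeR adjusted p from 0.0741 to 0.185. The difference between clusters was not tested.

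The balance of the 2 major members was tested as the share of Mt1 among Mt1 and Mt2 UMIs, a ratio within a library that compares mice and not the genes. In tumor cells it was 59.1%, 68.6% and 60.4% in control mice 1 to 3 and 65.9%, 66.8% and 66.5% in stress mice 1 to 3. The means were 62.7% ± 5.12 (SD, n = 3) and 66.4% ± 0.460, a difference of 3.74 percentage points (two-sided exact permutation p = 0.40, 0.80 after adjustment over 8 types). In the other 7 types the exact p was 0.3 to 0.9. The smallest p that 3 against 3 mice allow is 0.10. The share of thinned tumor cells with a UMI was 92.9% ± 1.89 in control and 93.4% ± 0.527 in stress mice for Mt1 (exact permutation p = 0.80), and 85.0% ± 6.75 and 85.1% ± 1.81 for Mt2 (exact permutation p = 1.0).

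The stress effect in each type was also set against that in tumor cells of the same mice, for Mt1 and Mt2 in 7 types. On CPM all 14 differences were negative, which means a lower fold in the other type than in tumor cells, and they share the tumor cell values. With the TMM scaling that edgeR uses, an alternative chosen after seeing the data, 9 were negative and 5 positive, from -0.47 to 0.14, so the common sign depended on the scaling. On CPM none passed adjustment, the lowest adjusted exact p being 0.467. The groups did not overlap in 2 of the 14, both in DCs, where 24.6% of genes showed no overlap. DCs minus tumor cells for Mt1 stood at -0.47, -0.58 and -0.52 on the log2 scale in control mice against -0.59, -0.79 and -1.05 in stress mice, a difference of -0.28 (exact permutation p = 0.10, the smallest possible). For Mt2 the difference was -0.24 (exact permutation p = 0.10). With TMM scaling these differences were -0.03 and 0.02 (exact permutation p = 0.90 for each), and the groups overlapped. The makeup of the DC class moved with this contrast. Its tumor cell markers stood at 69.1%, 66.1% and 58.9% of the tumor cell level in control mice against 49.3%, 52.1% and 41.1% in stress mice, with no overlap. Ccr7, a receptor of migrating dendritic cells, rose by 1.97 (edgeR adjusted p = 0.00211), from 79.6, 118 and 177 CPM in control mice to 390, 463 and 535 CPM in stress mice. The part of makeup in the DC values was not tested.

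Mtf1, which encodes the zinc sensor, stood at 19.9, 24.4 and 21.2 CPM in tumor cells of control mice 1 to 3 and 26.0, 24.5 and 28.5 CPM in stress mice 1 to 3, a log2 fold change of 0.13 (edgeR adjusted p = 0.405). Slc30a1, a zinc exporter of the plasma membrane and itself a known target of MTF1, stood at 34.9, 32.4 and 39.0 CPM in control against 51.1, 43.5 and 51.2 CPM in stress mice. Its groups did not overlap, beside 38.3% of all genes tested in tumor cells, and its log2 fold change of 0.32 did not pass (edgeR adjusted p = 0.108).

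Of 25 genes of zinc sensing and transport, 21 were tested in tumor cells, of which 1 was higher and 6 were lower under stress, with a median log2 fold change of -0.22 beside -0.01 over all genes, where 12% were called higher and 9.46% lower. Slc30a10, a transporter best known for exporting manganese, rose by 3.93 (SE 0.711, edgeR adjusted p = 0.0113) from a very low level, 0.006, 0.033 and 0 CPM in control against 0.231, 0.167 and 0.270 CPM in stress mice. Slc39a7, which releases zinc from the endoplasmic reticulum, fell by 0.55 (edgeR adjusted p = 0.0125), from 45.7, 56.0 and 43.5 to 32.3, 40.3 and 36.7 CPM with no overlap. Slc39a13 fell by 0.42 (edgeR adjusted p = 0.0184), and the other 4 lower genes were Slc39a9, Slc39a11, Slc30a7 and Slc30a5. Slc30a10 and Slc39a7 passed whichever single mouse was left out, whereas Slc39a13 did not pass without control mouse 1 or 3 or stress mouse 1 or 3 (adjusted p up to 0.0821). The count of lower genes fell from 6 to 1 without control mouse 1, control mouse 3 or stress mouse 1, to 3 without stress mouse 2 and to 2 without stress mouse 3, and was 9 without control mouse 2. Lower calls over all genes moved likewise, from 1783 of 18856 to 607 of 19373, 456 of 19390 and 906 of 19450 without control mouse 1, control mouse 3 and stress mouse 1. They were 796 of 19270 and 823 of 19363 without stress mice 2 and 3, and 2822 of 19354 without control mouse 2. In the other 7 types edgeR called 0 zinc genes in 111 tests, with 18 at an unadjusted p under 0.05, and DESeq2 called 2, beside 12.2% of all tests in these types at an unadjusted p under 0.05 and 1.75% called by DESeq2.

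The copper list had 1 gene higher and 1 lower among 10 tested in tumor cells, near the shares of all genes called there (12% higher and 9.46% lower). Atox1, the copper chaperone of the secretory pathway, fell by 0.57 (edgeR adjusted p = 0.00626), and Commd1, which takes part in copper export, rose by 0.48 (edgeR adjusted p = 0.0196). The call for Atox1 held whichever single mouse was left out, and that for Commd1 did not without control mouse 1, stress mouse 1 or stress mouse 2 (adjusted p up to 0.0737). Elsewhere Commd1 rose in DCs (0.93, edgeR adjusted p = 0.0145), Cox17, the copper chaperone of cytochrome oxidase, rose in NK/T cells (0.87, 0.0340) and DCs (0.92, 0.0409), and Cp, which encodes ceruloplasmin, rose in monocytes (2.99, 0.0338). Of all genes tested, 2.13% were called higher in DCs, 0.536% in NK/T cells and 0.106% in monocytes. Beside Cp, the summed hepatocyte genes in monocytes stood at 0.799 to 2.97 CPM in control against 14.5 to 36.3 CPM in stress mice, with Alb at 0, 0.246 and 0.247 against 3.30, 4.51 and 4.49 CPM. The part of hepatocyte RNA in the Cp value was not tested. These calls depended on single mice. Commd1 in DCs was lost without control mouse 1, control mouse 3 or stress mouse 1 (adjusted p up to 0.0532), and Cox17 in NK/T cells without control mouse 1 or 3 or stress mouse 1 or 3 (up to 0.195). Cox17 in DCs and Cp in monocytes were lost on leaving out any mouse but control mouse 2 (up to 0.175 and 0.178). In NK/T cells Ccr7 also rose, by 1.90 (edgeR adjusted p = 0.0132), from 32.7, 26.0 and 30.1 CPM in control mice to 122, 57.5 and 121 CPM in stress mice, and the part of makeup in the Cox17 value was not tested. In DC cluster 20 alone, an alternative chosen after seeing the data for these genes, edgeR called 20 of 6387 genes against 278 of 10533 in all DCs, and Commd1 (0.84, edgeR adjusted p = 0.268) and Cox17 (0.96, 0.183) did not pass. Tumor cell markers were lower and Ccr7 higher in stress DCs, as given above.

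Genes of the other known inducers of metallothioneins were counted the same way in tumor cells. In the glucocorticoid list 1 of 11 was lower, Ddit4 (-1.05, edgeR adjusted p = 0.0189), with a list median of -0.09. Of 13 STAT3 and acute phase genes 1 was lower, Stat3 itself (-0.62, edgeR adjusted p = 0.0158), with a median of -0.09. Of 14 NRF2 genes 1 was lower, Keap1, the inhibitor of NRF2 (-0.69, edgeR adjusted p = 0.00565), with a median of -0.03. Each count of 1 lies near the 9.46% of all genes called lower in tumor cells. Keap1 passed whichever single mouse was left out, while Ddit4 did not without control mouse 3 or any of the stress mice (adjusted p up to 0.0658) and Stat3 did not without control mouse 1 or 3 or stress mouse 2 or 3 (up to 0.0653).

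Of 10 hypoxia genes 6 were lower in tumor cells, Ankrd37 (-1.15, edgeR adjusted p = 0.00565), Bnip3 (-0.90, 0.0106), Slc2a1 (-0.75, 0.00705), Pdk1, Ldha and Ndrg1, with a list median of -0.68, beside 9.46% of all genes called lower and a median of -0.01. These 6 genes passed whichever single mouse was left out. In DCs Ankrd37 (-1.30, edgeR adjusted p = 0.00861) and Bnip3 (-0.95, 0.0379) were also lower, beside 0.513% of all genes, Bnip3 being lost (adjusted p up to 0.131) on leaving out any mouse but control mouse 2. In DC cluster 20 alone neither passed (Ankrd37 -1.63, edgeR adjusted p = 0.147, Bnip3 -0.82, 0.368), and the same shift in tumor cell markers and Ccr7 stood beside the DC values. In the other 6 types edgeR called 0 hypoxia genes in 50 tests, with 21 at an unadjusted p under 0.05, and DESeq2 called 4, beside 11.4% and 1.47% of all tests in these types. The list median was -0.46 to -0.68 over all 8 types. Over the same tumor cells the log2 fold change of Mt1 was 0.01. Summed genes of other RNA sources were low in tumor cells, at 0.597 to 1.76 CPM in control against 1.501 to 1.98 CPM in stress mice for 13 hepatocyte genes, and at 0.788 to 33.9 and 0.376 to 1.78 CPM for 4 hemoglobin genes of red cells.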

How the data were processed

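Single-cell RNA was measured in 6 liver tumors, 1 library a mouse, 3 control and 3 stress. The deposited matrices hold raw UMI counts of genes in cells, made by the authors with Cell Ranger on mm10, and a deposited table annotates cells with cell types and Seurat clusters. Per the study's methods, doublets were removed with Scrublet, cells with over 20% mitochondrial reads or under 200 genes were dropped, and libraries were integrated with Harmony. No further cells were removed here, and 58794 of 61374 barcodes carried an annotation. Their UMIs in the matrices equalled those in the annotation for 68.3% to 76.7% of cells and differed by at most 87.

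UMIs of a cell type were added up within each mouse, and CPM are UMIs per 1000000 of that sum. Summed counts were tested with edgeR 4.0.16 (R 4.3.3; filterByExpr, TMM, glmQLFit and glmQLFTest, Benjamini-Hochberg over all genes tested, threshold 0.05) in 8 cell types with at least 10 cells in every mouse. The study compared cells with FindMarkers, but the mouse is the replicate here. Ratios and shares were tested over mice by exact permutation with scipy 1.17.1. On simulated counts for tumor cells with 200 of 18783 genes changed, the fit recovered 193, with 9 false calls. The simulated log2 fold changes were 1 and 2 at a dispersion of 0.02. The result therefore gives no power for smaller changes or for genes as variable among mice as Mt4. Alternatives were DESeq2 1.42.0, other scaling and filtering, thinned cells, single clusters, omission of each mouse and a replicate block. The precision of a share is that of its cell count, and intervals are exact binomial at 95%. A limit for 0 cells is 3 cells of the total.

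Members and gene lists were chosen with earlier results of these data known. Named were the 4 members, Mtf1, Slc30a1, up to 3 called genes of each list in tumor cells and in any other type by absolute log2 fold change, and the 5 genes most correlated with Mt1 in each of the 2 sets of sums. Other lower or higher list genes, and the genes set beside Mt3 and Mt4, were named after their values were seen. Neutrophils and HSCs had under 10 cells in some mouse and were not tested.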

Additional observations from a re-analysis of the deposited data

Results flagged for a closer look

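Barcodes that the deposited annotation leaves out, 264, 389 and 395 in control mice 1 to 3 and 535, 549 and 448 in stress mice 1 to 3, enter no comparison above and also held metallothionein UMIs. Their Mt1 level was 3155, 3529 and 3424 CPM in control mice and 4039, 4122 and 4586 CPM in stress mice. Their Mt2 level was 2545, 1515 and 2310 CPM in control mice and 2138, 1780 and 2484 CPM in stress mice. The 3 mice highest in Mt4 were also the highest in these barcodes, which held 195.0, 5.18 and 146.8 CPM in control mice and 35.9, 5.37 and 10.99 CPM in stress mice. In the annotated cells of the same libraries Mt1 stood at 5446, 4023 and 4655 CPM in control and 5284, 4186 and 4816 CPM in stress mice, and Mt4 at 305, 6.82 and 168 CPM and 37.7, 4.62 and 5.57 CPM.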

How the results depend on the processing

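No setting brought Mt1, Mt2 or Mt3 past the threshold. Of the edgeR and DESeq2 alternatives, Mt1 kept its direction in 80 of 109, Mt2 in 101 of 109 and Mt3 in 10 of 10, and Mt4 stayed negative in 84 of 84, passing in 15. Those for Mt3 and Mt4, and the block for the permutation tests, were chosen after seeing the data. With no filter on low counts Mt4 passed in inflammatory myeloid cells (-5.73), monocytes (-5.05), NK/T cells (-5.24), DCs (-3.95) and M-MDSCs (-4.96). In each of these types control mouse 2 lay within or below the range of the stress mice, so the groups overlapped despite the pass. These unfiltered fits called 80 of 20510, 214 of 22931, 479 of 21687, 815 of 21487 and 321 of 19439 genes in the same order. The signs of fold changes, not only of small ones, turned in some settings. They turned for Mt1 with no filter in tumor cells (-0.0045), inflammatory myeloid cells (-0.0251) and DCs (0.0247), and for Mt2 in B cells (0.0174). They turned with thinned cells for Mt1 in inflammatory myeloid cells (-0.17) and NK/T cells (0.12) and for Mt2 in B cells (0.25), and without the deepest 5% of cells for Mt1 in tumor cells (-0.0024), inflammatory myeloid cells (-0.998) and B cells (-0.26). Single tumor clusters turned Mt1 (6, -0.11; 7, -0.0265; 9, -0.30; 14, -0.14; 21, -0.33) and Mt2 (4, 0.0068; 17, 0.016), and cluster 21 alone gave -4.60 for Mt4. The difference in tumor cells with a UMI turned for Mt1 with no thinning (-0.325) and thinning to 3000 (-0.144) and for Mt2 with no thinning (-0.663). The Mt1 share of Mt1 and Mt2 UMIs turned after thinning in ECs (-2.84), inflammatory myeloid cells (-0.961) and monocytes (-2.09). The cause was not tested. Replicate numbers did not pair the tumor cell sums: same-numbered mice correlated at 0.50, 0.39 and -0.13 in their deviations, and control mouse 3 was most like stress mouse 1 (0.33). In monocytes all 3 correlations passed 0.1 (0.478, 0.422 and 0.146), and in each of the other 6 types at least 1 did not. With a replicate block the calls in tumor cells went from 4041 to 5300 and in ECs from 30 to 132, Mt4 passed in tumor cells (-2.88, edgeR adjusted p = 0.0194), inflammatory myeloid cells (-5.61), DCs (-3.32) and M-MDSCs (-4.91), and Mt1 in M-MDSCs was -0.0056. Leaving out 1 mouse gave 1191 (control 3) to 5790 (control 2) calls in tumor cells, thinning 433, DESeq2 4992 and no filter 4013. Leaving out 1 mouse, the Mt1 fold change ran from -0.0837 to 0.13 in tumor cells, -0.52 to 0.67 in inflammatory myeloid cells, -0.77 to 0.11 in NK/T cells, -0.16 to 0.12 in DCs, -0.079 to 0.37 in B cells and -0.26 to 0.18 in M-MDSCs, and Mt2 from -0.84 to 0.54 in inflammatory myeloid cells, -0.18 to 0.24 in B cells and -0.50 to -0.0487 in tumor cells. Mt1 in ECs and monocytes and Mt2 in the other 5 types stayed negative, and Mt3 in NK/T cells ran from 0.44 to 1.21. Mt4 ran from -4.90 to -2.47 in tumor cells, -5.69 to -3.42 in ECs, -7.30 to -4.23 in inflammatory myeloid cells, -5.95 to -4.30 in monocytes, -6.02 to -1.16 in NK/T cells, -5.18 to -2.29 in DCs and -7.31 to -4.11 in M-MDSCs. The effect relative to tumor cells ran, for Mt1, from -0.37 to 0.21 in B cells, -0.32 to 0.0246 in M-MDSCs and -0.77 to 0.39 in inflammatory myeloid cells, and for Mt2 from -0.20 to 0.16 in B cells and -0.74 to 0.37 in inflammatory myeloid cells. With TMM scaling, added after seeing the data, it turned for Mt1 in inflammatory myeloid cells (0.0383) and B cells (0.0659) and for Mt2 in inflammatory myeloid cells (0.0336), DCs (0.0154) and B cells (0.14). The Mt1 share of UMIs ran from -0.372 to 2.26 in ECs, -2.996 to 4.34 in NK/T cells and -2.06 to 3.75 in monocytes, and the share of cells from -0.529 to 1.35 for Mt1 and -3.63 to 2.93 for Mt2. DESeq2 gave no adjusted p for Mt3 in NK/T cells. Mt3 had 289 UMIs in all.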
